A study of Sus scrofa with 8 samples.

Results

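Histone genes were followed in poly(A) RNA from the longissimus dorsi, a skeletal muscle along the spine. The piglets were Duroc x Landrace x Yorkshire crosses. Members were chosen by name: 23 of the 23235 genes in the deposited table carry a name of the H1, H2A, H2B, H3 or H4 families. By name 15 were replication-dependent copies, 7 were replacement variants, and 1, H2BK1, is an H2B variant placed in neither class. Piglets weaned at 28 days of age were randomised, 6 per group, to melatonin at 5 mg per kg body weight, in 10 mL of sterile saline, or to saline alone. Daily gavage with either one began after 5 days of adaptation and lasted 23 days, on a shared basal diet. The 8 libraries are 4 control and 4 melatonin, each taken to be a separate piglet, since the labels give only the group and a replicate number. The p-values below therefore measure only the spread between these samples.

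Histones package DNA into nucleosomes. Replication-dependent histone genes lie in clusters, have no introns, and are transcribed mainly while DNA is copied. Their mRNAs normally end in a stem-loop bound by SLBP rather than in a poly(A) tail, although some copies also make polyadenylated mRNA, mainly in cells that have stopped dividing. Replacement variants such as H3.3 and H2A.Z come from separate genes whose mRNAs are polyadenylated and made throughout the cell cycle, and they supply chromatin in non-dividing tissue such as muscle fibres. Oligo(dT) selection, used for these libraries, captures RNA through its poly(A) tail.

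Total counts ran from 53471667 to 60629098. Markers of muscle fibres were high in every library: ACTA1, the skeletal muscle actin, measured 49047 to 74673 FPKM, and the 8 fibre markers of the table summed to 103646 to 120520 FPKM in controls and 86720 to 111339 after melatonin. Of the other cell type markers, the 6 fibroblast genes summed to 478 to 936 FPKM in controls and 655 to 8451 after melatonin, with melatonin replicates 1 and 3 at 8451 and 2522. Those 2 libraries were also highest for the 5 adipocyte genes (217 and 208 FPKM against 16.1 to 127 in the other 6) and the 5 macrophage genes (16.9 and 16.4 against 4.73 to 10.5). The 5 endothelial genes summed to 38.3 to 55.5 FPKM in controls and 38.7 to 56.9 after melatonin, and the 7 lymphocyte genes to 2.05 to 4.12 and 1.97 to 5.17. The 3 erythroid genes gave 41.3 to 165 and 37.8 to 99.4 FPKM. The satellite cell pair PAX7 and MYF5 gave 1.68 to 1.96 FPKM in controls and 2.02 to 4.14 after melatonin. CD79A, MS4A1, SLC4A1 and LEP were listed at 0 in at least 1 library.

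Replacement variants made up most of the histone signal, and the clustered copies that were measured fell into a few genes well above the rest. FPKM scales fragments by transcript length and library size, so it allows levels to be compared between genes. All 7 replacement variants passed the filter, a mean of 1 FPKM or more across libraries, with mean FPKM from 5.15 to 112. Only 5 of the 15 replication-dependent copies did, at 10.3 to 28.1 FPKM: the linker histone gene H1-3, the H2A genes H2AC6, H2AC19 and H2AC18, and the H2B gene HIST1H2BD. The other 10 copies and H2BK1 lay between 0.00905 and 0.694 FPKM and together gave 0.603% of all histone counts. None of the 23 members carries an H4 name, and neither clustered H3 copy was among the 12 that passed. This concerns names only. Of 38 nucleosome models without a symbol in the deposited table, 8 had a mean FPKM of at least 1 (below). They were not assigned to a histone family, so H4 or H3 copies among them would be missed here. By mean count, every replacement variant was among the upper 12 members.

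**Figure D1:**
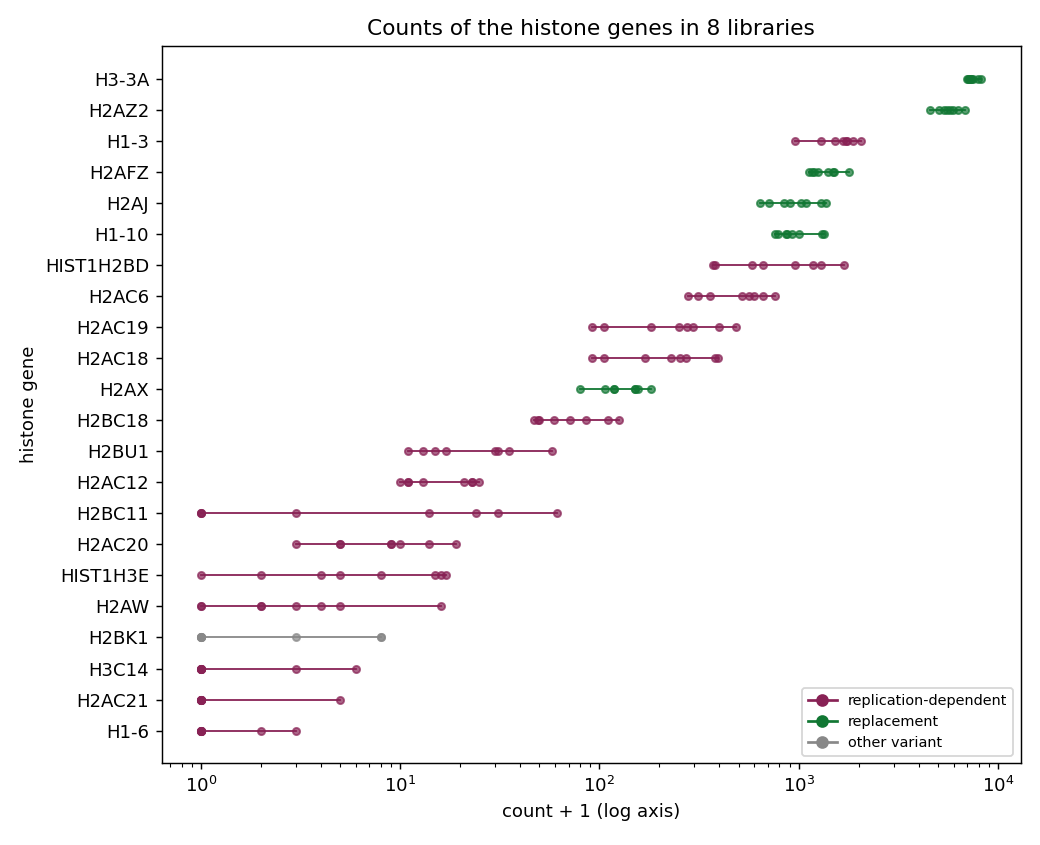
Counts of 22 of the histone genes in the 8 libraries, as count + 1 on a log axis, ordered by mean count and coloured by class. Points are libraries and lines join the lowest and highest. The replacement variants plotted have mean counts of 132 to 7448, and 10 of the 15 replication-dependent copies have mean counts under 100.

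The gene models of the clustered copies were of several kinds. All 7 copies on chromosome 7 lie between 20775859 and 21232705, all 6 on chromosome 4 between 99168255 and 99219698, and H2AW and H2BU1 lie together on chromosome 2 between 51687842 and 51694245 (Sscrofa11.1). A length for each model was taken from the ratio of its count to its FPKM. In 13 of the 15 copies the model spanned no more genome than that length (0.755 to 0.956 of it), as in a model without introns. A length above the span itself shows that the ratio gives model length only roughly. For H1-6, H2AC21 and H3C14 it also rests on mean counts of 0.375, 0.5 and 0.875. The copies that spanned more than their length were H1-3, with 19356 bases and a length of 1013, and HIST1H2BD, with 8403 bases and a length of 870. These are also the copies with the highest mean counts, 1604 and 888. In mean FPKM, which allows for length, H1-3 was again highest (28.1), but HIST1H2BD (17.9) lay below H2AC6 (21.5). Besides H1-3 and HIST1H2BD, 3 copies passed: H2AC6, H2AC18 and H2AC19. Each is 393 bases, a coding length for 130 residues and a stop codon with no UTR. H2AC21 and H2AW, whose models also span 393 bases, gave totals of 4 and 26 counts over the 8 libraries against 4040 for H2AC6. 

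Summed over each class, replication-dependent copies gave 2691 to 4283 counts in controls and 3426 to 4408 after melatonin. Scaled to the library total (CPM), control replicates 1 to 4 gave 58.5, 46.9, 61.8 and 72.7, and melatonin replicates 1 to 4 gave 71.5, 74.0, 73.2 and 56.5 CPM. The groups overlapped, and melatonin replicate 4 stood below the other 3. With library sizes scaled by TMM, the factors used in the test below, the melatonin libraries gave 60.6, 80.1, 61.9 and 65.1 CPM, and replicate 4 was not the lowest. Replacement variants gave 384 ± 33.7 CPM in controls and 392 ± 46.9 after melatonin (SD, n = 4), with ranges of 345 to 415 and 341 to 453. On the log2 scale the class sums differed between the groups by 0.21 for replication-dependent copies and 0.03 for replacement variants, each less than the spread within groups (0.23 and 0.15). With TMM library sizes these differences were 0.13 and -0.05.

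Replication-dependent copies took 13.5 ± 2.07% of the counts of both classes in controls and 14.9 ± 1.14% after melatonin. Both classes hold named members only. ENSSSCG00000017202, a nucleosome model without a symbol in the deposited table and with a mean count of 3878, is in neither (below). Control replicate 4 had the highest share, 16.5% (95% Wilson interval 16.1 to 16.99%), and control replicate 2 the lowest, 12.0% (11.5 to 12.4%). These intervals cover counting error only, and they are narrow beside the differences among libraries. In summed FPKM the share was 27.6 ± 3.57% and 27.6 ± 1.75%. Replacement variants exceeded the clustered copies in every library, by 2.05 to 3.03 times in summed FPKM. Other RNAs that normally carry no poly(A) tail were looked for as well. Picked by a biotype or a name start used for such RNAs, 519 models summed to 155 to 178 CPM in controls and 138 to 215 after melatonin. The name starts can also take in coding genes, which were not removed. The highest sums were in melatonin replicates 1 and 3. Without the 5 models of highest level the sums were 27.8 to 36.3 and 26.0 to 38.5 CPM, and their part in the histone values was not tested.

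**Figure D2:**
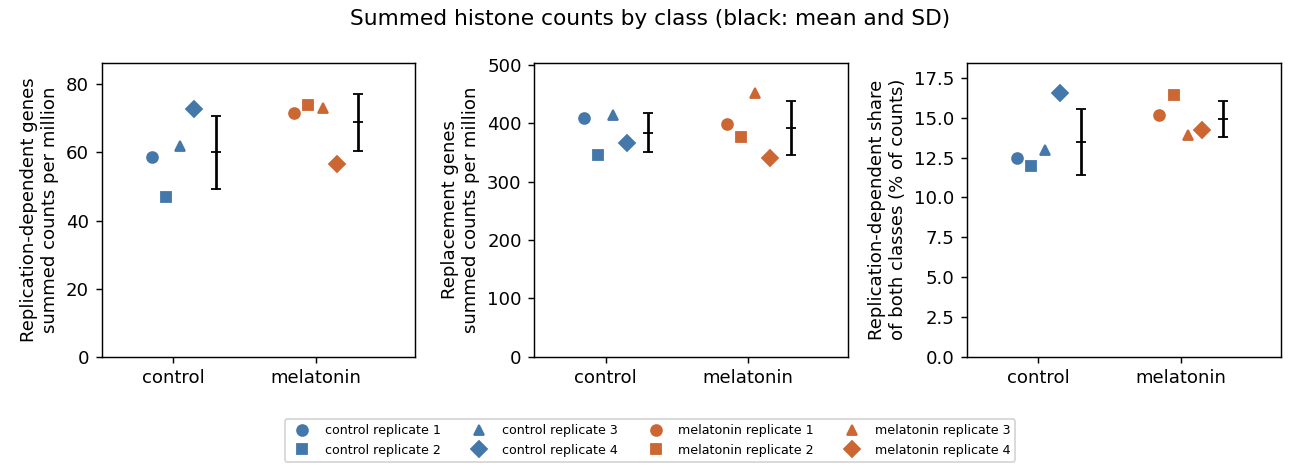
Summed CPM of replication-dependent and of replacement histone genes, and the replication-dependent share of both in percent of counts, in each library. Black marks give the mean and SD of 4 libraries. Control and melatonin libraries overlap in all 3 panels.

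In a comparison of melatonin with control over all genes, HIST1H2BD was higher after melatonin, H2AC18 and H2AC19 were lower, and the other 9 tested histone genes had log2 fold changes between -0.48 and 0.16. The test was edgeR's quasi-likelihood test on the counts of 9821 genes at a mean FPKM of at least 1, with Benjamini-Hochberg adjustment over all of them. It called 0 genes at an adjusted p under 0.05 (0.0% of genes, smallest adjusted p = 0.440), so no histone gene passed, while 1032 genes had an unadjusted p under 0.05. DESeq2 called 65 genes (0.662%), of which HIST1H2BD and H2AC18 were 2 of the 12 histone genes tested. At an unadjusted p under 0.05, edgeR gave 3 of 12 histone genes, where 10.5% of all genes tested reached that level. HIST1H2BD was on the higher side, where 6.67% of all genes lay, and the H2A pair on the lower side, where 3.84% lay. These 3 were all replication-dependent, and H2AC18 and H2AC19 are not taken as independent of each other (below). The median log2 fold change was -0.07 over the 5 clustered copies and -0.05 over the 7 variants, against -0.0014 over all genes tested, and the classes were not tested against each other. In bulk muscle, fewer cells of a type and less RNA per cell cannot be told apart.

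**Figure D3:**
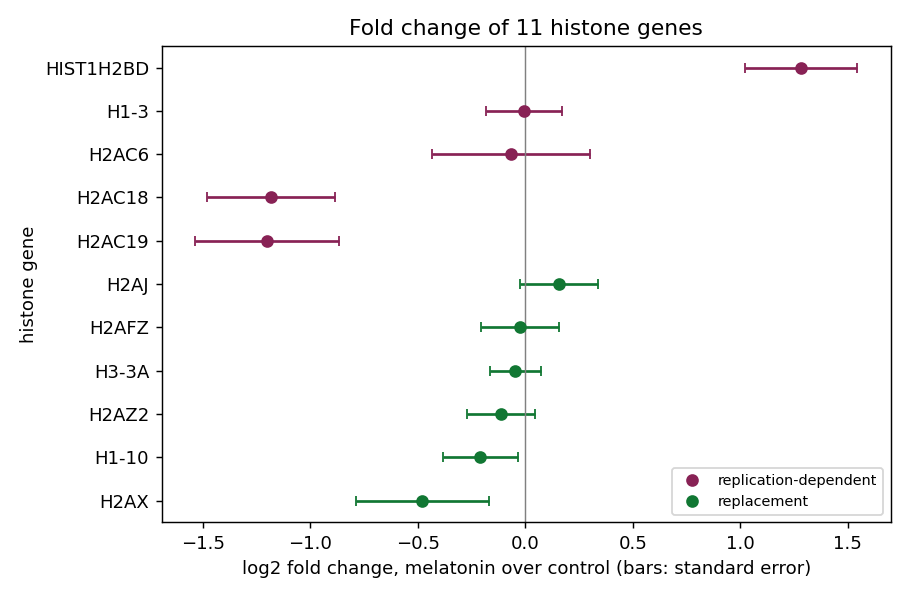
Log2 fold change, melatonin over control, of 11 histone genes at a mean FPKM of at least 1, with standard errors from edgeR, coloured by class. HIST1H2BD lies at 1.28, H2AC18 and H2AC19 at -1.18 and -1.20, and the other 8 plotted between -0.48 and 0.16.

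HIST1H2BD encodes an H2B core histone (ENSSSCG00000021411, chromosome 7, 20821091 to 20829493, plus strand). Control replicates 1 to 4 held 378, 369, 658 and 579 of its counts, and melatonin replicates 1 to 4 held 956, 1688, 1180 and 1294. In FPKM these were 8.09, 7.39, 14.1 and 11.3 against 20.3, 32.7, 24.6 and 24.7. Every melatonin library was above every control library, which held for no other of the 12 genes and for 2.2% of all genes tested in either direction (1.13% as higher). The means were 10.2 ± 3.11 and 25.6 ± 5.18 FPKM (SD, n = 4). The log2 fold change was 1.28 ± 0.26 (SE), with an adjusted p of 0.440 in edgeR and 0.00721 in DESeq2. By p in edgeR it had rank 5 of 9821 genes.

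Leaving out each library in turn kept the HIST1H2BD fold change between 1.08 and 1.46, with adjusted p from 0.0862 to 0.789 in edgeR. Without melatonin replicates 1 and 3, the libraries with high fibroblast and adipocyte markers, it was 1.60, from the 2 melatonin libraries left. Its part of the replication-dependent FPKM was 11.5 ± 3.64% in controls and 27.9 ± 5.86% after melatonin. PAX7 and MYF5, summed, were also higher in every melatonin library than in any control, at low levels. Their means over all libraries were 0.902 and 1.40 FPKM, so PAX7 lay under the filter. Of single genes tested, 1.13% were higher in every melatonin library. The pair is 1 of several marker sums that were read, and its part in this result was not tested.

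H2AC18 and H2AC19 are H2A genes on opposite strands of chromosome 4 (ENSSSCG00000057512, 99197661 to 99198053, and ENSSSCG00000057447, 99188855 to 99189247). For H2AC18 the control libraries held 394, 227, 271 and 380 counts, and the melatonin libraries 254, 91, 168 and 104. For H2AC19 they held 397, 250, 273 and 481, against 294, 91, 181 and 105. Melatonin replicates 2 and 4 were lowest for both genes, and replicate 1 lay within the control range, so the groups overlapped. The counts of H2AC19 were 1.00 to 1.27 times those of H2AC18 in the 8 libraries. H2A genes form a multigene family whose copies may share or divide reads in counting, and the identity of this pair was not computed here. Their values are therefore uncertain singly and are not taken as 2 independent observations.

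H2AC18 FPKM in controls was 17.9, 9.60, 12.3 and 15.7, against 11.4, 3.72, 7.39 and 4.17 with melatonin. Its log2 fold change was -1.18 ± 0.30, with an adjusted p of 0.440 in edgeR and 0.0386 in DESeq2. H2AC19 FPKM in controls was 18.01, 10.6, 12.4 and 19.9, against 13.2, 3.72, 7.97 and 4.20 with melatonin. Its log2 fold change was -1.20 ± 0.34, with an adjusted p of 0.440 in edgeR and 0.0632 in DESeq2. Their spread between libraries was wide: within groups the SD of log2 CPM was 0.58 and 0.65, at the 86.3 and 89.9 percentiles of all genes tested. Left out in turn, the 8 libraries gave fold changes from -1.48 to -1.02 for H2AC18 and from -1.57 to -1.02 for H2AC19. Within the melatonin group the higher values of both genes were in replicates 1 and 3. Without these 2 libraries the fold changes were -1.68 and -1.80, from the 2 melatonin libraries left.

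**Figure D4:**
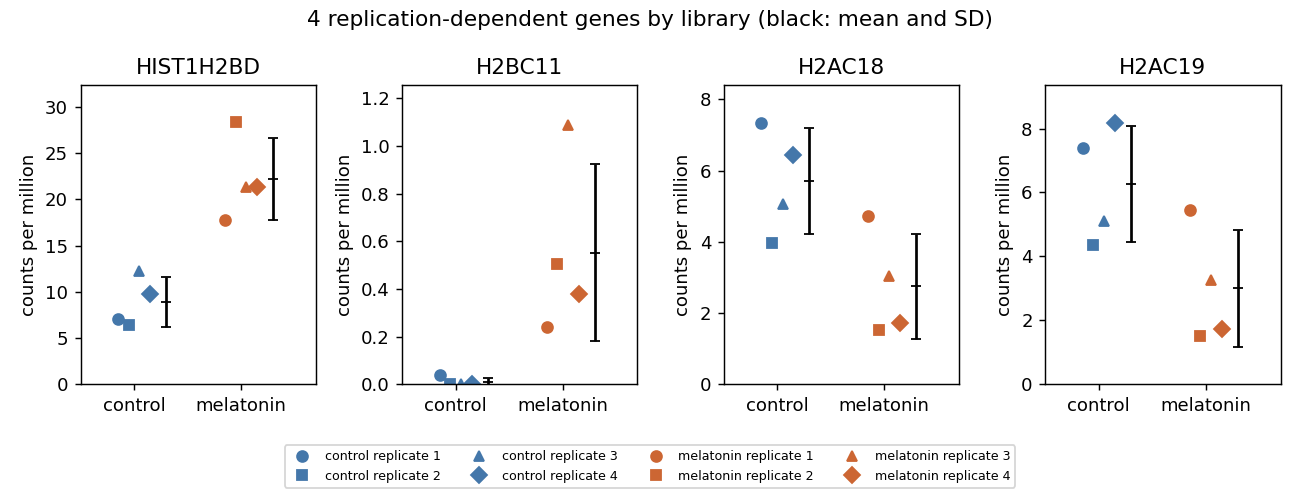
CPM of HIST1H2BD, H2BC11, H2AC18 and H2AC19 in each library, with the mean and SD of 4 libraries in black. All melatonin libraries lie above all controls for HIST1H2BD and H2BC11, and the groups overlap for H2AC18 and H2AC19.

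HIST1H2BD and the H2A pair lay in opposite directions within 1 class. With these 3 genes left out, the class sum differed between the groups by 0.06 on the log2 scale. The ratio of HIST1H2BD to H2AC18 in FPKM was 0.453 to 1.15 in controls and 1.78 to 8.81 after melatonin. That ratio joins genes chosen for their difference and is given as a description only.

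H1-3 and H2AC6, the other clustered copies with signal, lay near 0 in the same comparison. H1-3, a linker histone that binds DNA between nucleosomes, had 1521, 954, 1676 and 2046 counts in controls, against 1879, 1729, 1740 and 1286 with melatonin. In FPKM these were 28.0, 16.4, 30.9 and 34.4 against 34.3, 28.8, 31.1 and 21.0, and the log2 fold change was -0.0043 ± 0.18. Control replicate 2 was lowest and the groups overlapped. H2AC6, an H2A copy, had 356, 760, 277 and 594 counts in controls, against 313, 659, 562 and 519 with melatonin. In FPKM these were 16.1, 32.2, 12.6 and 24.6 against 14.1, 27.0, 24.7 and 20.9, with a log2 fold change of -0.07 ± 0.37. Control replicates 2 and 3 were its highest and lowest libraries, so the controls enclosed all melatonin values.

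Among replacement variants, H3-3A and H2AZ2 varied least between libraries of a group. H3-3A, which encodes the replacement histone H3.3, was the highest of all members, with counts of 7125, 7086, 7500 and 7283 in controls and 8267, 7346, 7983 and 6990 after melatonin. In FPKM it measured 112, 104, 118 and 105 against 129, 105, 122 and 97.9, with a log2 fold change of -0.05 ± 0.12. The spread of H3-3A within groups (0.15 on the log2 scale) was at percentile 4.80 of all genes tested, and the groups overlapped.

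H2A.Z, a variant found at promoters, comes from a pair of genes. H2AFZ had 1493, 1250, 1404 and 1124 counts in controls, against 1162, 1190, 1797 and 1505 with melatonin, and FPKM of 24.6, 19.2, 23.1 and 16.9 against 18.99, 17.7, 28.7 and 22.0. H2AZ2 had 5087, 5332, 5520 and 6807 counts in controls, against 4568, 5962, 6291 and 5747 with melatonin, and FPKM of 15.7, 15.4, 17.03 and 19.2 against 14.0, 16.6, 18.8 and 15.8. H2AZ2 drew more counts, on a model of greater length, while H2AFZ was higher per length in 7 of the 8 libraries. The groups overlapped for both genes, and their log2 fold changes were -0.02 ± 0.18 and -0.11 ± 0.16.

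H2AJ encodes H2A.J, a variant that accumulates in senescent cells. It had 900, 708, 847 and 1084 counts in controls, against 1291, 1028, 1369 and 637 with melatonin, and FPKM of 24.9, 18.3, 23.4 and 27.4 against 35.4, 25.7, 36.7 and 15.6. Melatonin replicates 1 and 3 were highest and replicate 4 lowest of all 8 libraries, and the log2 fold change was 0.16 ± 0.18. Without replicates 1 and 3 it was -0.07. H1-10, another linker histone, had 871, 861, 1003 and 1314 counts in controls, against 1334, 759, 929 and 790 with melatonin, and FPKM of 11.3, 10.4, 13.04 and 15.6 against 17.2, 8.91, 11.7 and 9.12 (log2 fold change -0.21 ± 0.17). Melatonin replicate 1 was its highest library and the other 3 melatonin libraries lay at or below the middle of the controls, so the groups overlapped.

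H2AX, whose protein is phosphorylated at DNA breaks, is known to make both stem-loop and polyadenylated mRNA. It was the lowest of the variants, with counts of 181, 149, 149 and 118 in controls and 79, 117, 106 and 156 after melatonin. In FPKM it measured 7.44, 5.72, 6.11 and 4.43 against 3.20, 4.36, 4.23 and 5.71. The log2 fold change was -0.48 ± 0.31 (edgeR adjusted p = 0.577), and the groups overlapped through control replicate 4 and melatonin replicate 4. With 1 library left out the H2AX fold change ran from -0.74 (without melatonin replicate 4) to -0.31 (without melatonin replicate 1), and without melatonin replicates 1 and 3 together it was -0.12. In edgeR's fit of all 8 libraries none of the 7 variants reached an unadjusted p under 0.05. Without melatonin replicate 4, H2AX (edgeR unadjusted p = 0.0329) and H2AJ (0.0467, log2 fold change 0.31) did, where 19.2% of all genes tested reached that level. Without melatonin replicate 1, H1-10 did (edgeR unadjusted p = 0.0369, log2 fold change -0.37), where 8.48% of all genes reached it. With all 8 libraries the share was 10.5%.

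**Figure D5:**
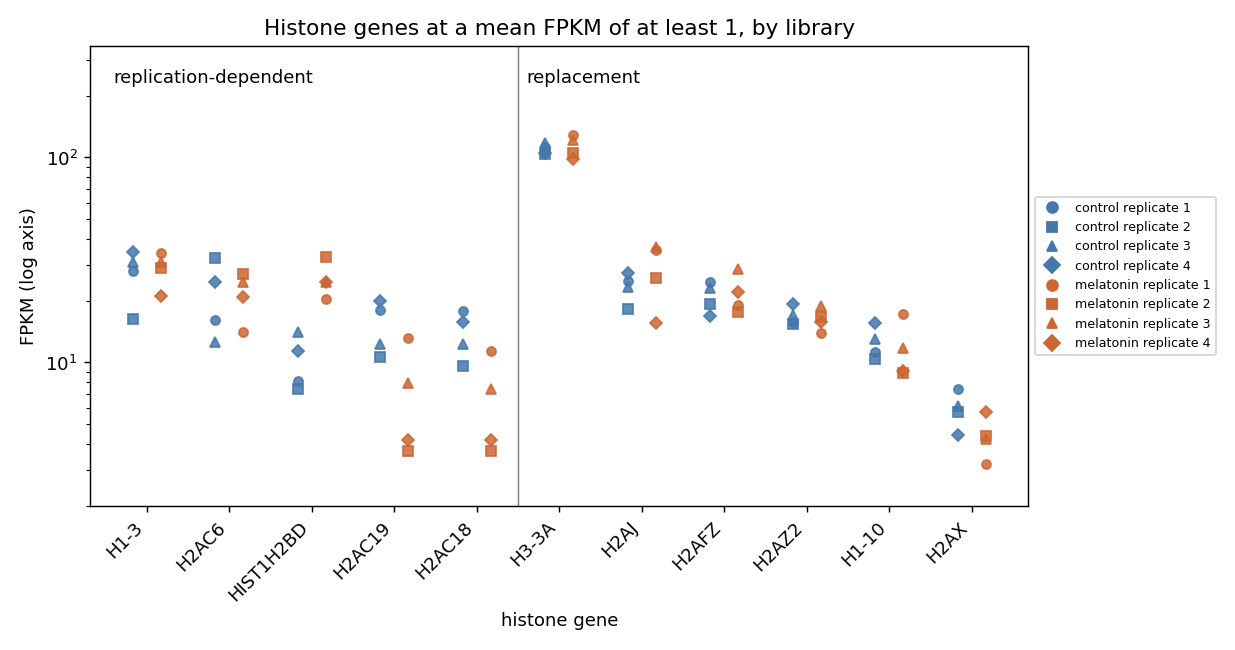
FPKM of 11 histone genes at a mean FPKM of at least 1 in each library, on a log axis, with replication-dependent copies to the left. Shapes mark the replicate and colours the group. H3-3A lies at 97.9 to 129 FPKM in all libraries, and the groups are apart only for HIST1H2BD.

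H2BC11, an H2B copy under the filter, was nearly confined to melatonin libraries. Control libraries held 2, 0, 0 and 0 of its counts, and melatonin libraries 13, 30, 60 and 23 (ENSSSCG00000054132, chromosome 7, 21220123 to 21220503). In FPKM these were 0.0792, 0, 0 and 0 against 0.592, 1.25, 2.71 and 0.922. The totals of 2 and 126 counts gave a ratio of 61.4 per total count (exact 95% interval 16.6 to 512, counting error only). H2BC11 was named after its values were seen, so these values are a description. In edgeR without a filter its log2 fold change was 5.53 ± 1.21, with an adjusted p of 0.515. Of all 23235 genes, 1.96% had groups that did not overlap in FPKM. H2BC11 is a coding-length model of 381 bases from the same family as HIST1H2BD. Whether reads of other H2B copies were counted in either was not tested, and their identity was not computed here.

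The remaining low members had no such pattern. H2BC18 had 49, 85, 70 and 125 counts in controls, against 48, 58, 110 and 46 with melatonin. H2BU1 had 14, 10, 30 and 34 against 57, 29, 12 and 16, and H2AC12 had 24, 9, 22 and 22 against 12, 10, 10 and 20. These 3 are long models without an intron by the same measure, at 0.0436 to 0.382 FPKM. H2BU1 overlaps H2AW on the opposite strand by 360 bases, and whether counting used strand is not given in the sources used here. Opposite-strand overlaps with other models were also present for H1-3 (3315 and 2777 bases), HIST1H3E (1215) and H2AFZ (2426). Those other models had mean counts of 0.875 to 54.5.

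Counts of the others were at or near 0. H2AC20 had 4, 8, 2 and 18 counts in controls and 13, 4, 8 and 9 after melatonin. HIST1H3E, a clustered H3 copy, had 4, 14, 15 and 1 against 0, 16, 7 and 3. H2AW had 0, 4, 2 and 3 against 15, 1, 0 and 1, of which a single melatonin library held nearly all. H2BK1 had 2, 7, 0 and 0 against 0, 0, 7 and 0. H3C14, H2AC21 and H1-6, a testis linker histone, totalled 7, 4 and 3 counts over the 8 libraries. H3C14 had 5 in control replicate 3 and 2 in melatonin replicate 2, H2AC21 had its 4 in control replicate 3, and H1-6 had 1 in control replicate 2 and 2 in melatonin replicate 3. At these counts no difference was detectable.

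Genes that process, carry or use histones were read from the same fit. Of the 17 listed genes of histone mRNA processing and decay, 12 were tested, 0 passed in edgeR or DESeq2 in either direction, and the median log2 fold change was 0.03. SLBP, which binds the stem-loop, had a level of 3.85 ± 0.893 FPKM in controls, against 4.54 ± 1.504 with melatonin (0.11 ± 0.22), and is named here for its role. The smallest p of the list were those of CSTF2, a cleavage stimulation factor (0.46 ± 0.28), and MIF4GD, which links SLBP to translation (-0.30 ± 0.22).

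Histone chaperones hand histones to DNA. Of 22 listed, 15 were tested, 0 passed, and 12 lay above 0 and 3 below, with a median of 0.07. Without the filter, 9 of 19 lay above 0 and 10 below, with a median of -0.00066. SUPT16H, a subunit of the FACT complex, had a level of 4.17 ± 0.657 FPKM in controls, against 5.68 ± 1.29 with melatonin, and a log2 fold change of 0.35 ± 0.13 (adjusted p of 0.446 in edgeR), and NPM1, a nucleolar chaperone, 14.1 ± 1.69 and 17.4 ± 4.03 (0.21 ± 0.13).

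Of 27 listed DNA replication genes, whose activity accompanies histone supply in dividing cells, 15 were tested and 0 passed, with 5 above 0, 10 below and a median of -0.14. That median was -0.35 without melatonin replicate 4, -0.08 without control replicate 4, and -0.26 over 24 genes without the filter. MCM7, of the replicative helicase, stood at 6.24, 5.84, 5.73 and 4.97 FPKM in controls, against 11.5, 8.20, 12.0 and 5.96 with melatonin, and had a log2 fold change of 0.60 ± 0.16 (adjusted p of 0.440 in edgeR). Melatonin replicates 1 and 3 were highest, and replicate 4 lay among the controls. TK1, a thymidine kinase of dividing cells, measured 1.69 ± 0.866 and 1.13 ± 0.161 FPKM (-0.65 ± 0.35). Of 12 mitosis genes 6 were tested and 0 passed, with a median of 0.02, which ran from -0.20 (without control replicate 4) to 0.32 (without control replicate 1). They include the spindle genes TPX2 (0.59 ± 0.46) and NUSAP1 (-0.22 ± 0.22). The median over all genes tested was -0.0014.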

How the data were processed

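The authors deposited a table of 23235 Ensembl genes that gives, per the file headers, raw counts (whole numbers) and FPKM (fragments scaled by length and depth) for each of 8 libraries. The labels describe oligo(dT) purification and a second strand marked with dUTP. Per the submitters' processing notes, FastQC, StringTie, DESeq2 and the build Sscrofa11.1 were used; no role is attached. Aligner and annotation: not given in the sources used here. All value columns were mapped to a library by title, and 0 were left over. No pair of libraries matched within sampling noise (smallest chi-square per degree of freedom 49.8).

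The count test was the quasi-likelihood F test of edgeR 4.0.16, run in R 4.3.3 after TMM scaling and with no covariates, at a mean FPKM of at least 1 and an adjusted p under 0.05. TMM factors ran from 0.853 to 1.18, so CPM and FPKM, which use the total count, differ from the fitted changes. The SE is the log2 fold change over the root of F. The fit was checked on simulated counts with 50 genes changed at each fold. It recovered 0 of 50 at 1.5-fold, 23 at 2-fold, 46 at 4-fold and 50 at 8-fold, with 4 false calls. Many changes near 2-fold were thus missed in that check. Spread uses log2(CPM + 0.1). Alternatives were DESeq2 1.42.0, limma 3.58.1 on log2(FPKM + 1) and log2(FPKM + 0.1), median-of-ratios scaling, other filters, a replicate block and left-out libraries. The bias-adjusted test and 2 other member sets for the sums were added with the data already seen. Summaries used Python 3.11.15, NumPy 2.4.6, pandas 2.3.3 and SciPy 1.17.1, with plots in Matplotlib 3.10.9.

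Members, classes and lists were chosen by name, with earlier results of these data known. All members past the filter are named but 1, which is not reported here and stays in the counts and sums, and from each list the 2 genes with the smallest p. Sums over members have no test. Of 44 cell type markers 41 were in the table.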

Additional observations from a re-analysis of the deposited data

Results flagged for a closer look

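The summed replication-dependent level of melatonin replicate 4, 56.5 CPM, stood far below the other 3 melatonin libraries: the gap was 0.860 of the range of the group. It was 1 of 34 groups of 4 values examined for such a gap, and chance alone gives about 1 in 20. With TMM library sizes the melatonin sums were 60.6, 80.1, 61.9 and 65.1 CPM, so the gap was seen only with total-count scaling. In that library H1-3 was the lowest of the melatonin values, at 1286 counts. The replacement sum of that library was 341 CPM, the lowest of its group, but 393 CPM with TMM sizes, against 338 in melatonin replicate 1.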

How the results depend on the processing

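HIST1H2BD, H2AC18 and H2AC19 kept their sign and an unadjusted p under 0.05 in every setting run. Called genes went from 0 to 65 in DESeq2, with 2 histone genes, and lay between 0 and 15 over the left-out libraries, the 15 without melatonin replicate 4. Genes at an unadjusted p under 0.05 (1032) were 557 and 543 in limma at pseudocounts 1 and 0.1, 1789 without a filter, 434 at a mean FPKM of at least 5, 474 without melatonin replicates 1 and 3, and 568 to 1882 over the left-out libraries (568 without melatonin replicate 3, 1882 without replicate 4). Histone genes among them were 3 of 12 tested in the main fit and 3 to 5 over all settings. The 5 came without melatonin replicate 4, where H2AX and H2AJ joined and 19.2% of all genes tested reached that level. Without a filter or with edgeR's count filter H2BC11 joined, for 4 of 23 and 4 of 16 tested. Genes of the 4 histone supply lists at that level (2) were 1 in either limma fit and at a mean FPKM of at least 5. They were 5 without a filter or with edgeR's count filter, 0 without melatonin replicates 1 and 3, and 1 to 6 over the left-out libraries. The lists had 12, 15, 15 and 6 genes tested in the main fit. At a mean FPKM of at least 5 they had 4, 9, 3 and 0, and without a filter or with the count filter 16, 19, 24 and 11. Of all genes tested, 10.5% reached that level in the main fit, 5.67% and 5.53% in limma and 10.0% at a mean FPKM of at least 5. The share was 7.7% without a filter, 9.26% with the count filter and 4.83% without melatonin replicates 1 and 3. Fold changes near 0 changed sign. H1-3, H2AFZ, H3-3A and H2AC6 were 0.096, 0.049, 0.039 and 0.067 in limma at pseudocount 1 and 0.10, 0.051, 0.039 and 0.073 at 0.1. At a mean FPKM of at least 5, H1-3 and H2AFZ were 0.038 and 0.017. Without melatonin replicates 1 and 3, H2AFZ, H2AZ2, H2AJ and H2AC6 were 0.039, 0.057, -0.073 and 0.23. Over the left-out libraries H1-3 ran from -0.14 to 0.10, H2AFZ from -0.13 to 0.088, H2AZ2 from -0.18 to 0.0030 and H2AC6 from -0.27 to 0.30. With the replicate number as a block H1-3 was 0.017, 1061 genes had an unadjusted p under 0.05 and 0 were called. Same-numbered libraries deviated together at correlations of 0.18, 0.07, 0.18 and -0.02, so the numbers were not taken as pairs. Differences between class sums and shares moved by less than the spread within groups in every setting run, and library size cannot change the share. The main differences were themselves below that spread: 0.21 against 0.23 (replication-dependent), 0.03 against 0.15 (replacement), and 1.45 against 1.67 points (share). A fall to 0 would also have met this limit, so it is a weak check. The replication-dependent difference ran from 0.05 (summed FPKM) to 0.30 (without control replicate 4), with 0.094 without control replicate 2 and 0.13 with TMM sizes. The replacement difference ran from -0.10 (without melatonin replicates 1 and 3) to 0.09 (without melatonin replicate 4) and was below 0 with TMM sizes and without control replicate 2 or melatonin replicate 3. The share difference ran from 0.0074 points (FPKM) to 2.47 points (without control replicate 4). The causes of these changes were not tested. The 11 members under the filter had at most 125 counts in a library.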

Other observations

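Beyond the named members, 38 gene models without a symbol in the deposited table are placed in the nucleosome by the deposited GO column, 27 of them on chromosome 7 and 5 on chromosome 4. Of these 38, 32 had a mean count under 100, and 8 had a mean FPKM of at least 1. The highest, ENSSSCG00000017202 on chromosome 12 (5632365 to 5634726), had counts of 4283, 2723, 3164 and 2705 in controls, against 5172, 3724, 6364 and 2888 with melatonin; its log2 fold change was 0.34 ± 0.22 (adjusted p of 0.572 in edgeR). A model on chromosome 4 (99169485 to 99186310), which lies between the named copies H2AC20 and H2AC19, had counts of 881, 1222, 1175 and 1549 against 1245, 1329, 1797 and 957 (0.01 ± 0.19). With the models on chromosomes 4 and 7 added, the replication-dependent share of counts was 20.3 ± 2.41% in controls and 21.2 ± 1.14% after melatonin. They were added to the replication-dependent side by chromosome alone, with none added to the replacement variants, so the share could only rise. ENSSSCG00000017202, on chromosome 12, was on neither side.

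Models beside the genes described above gave the following counts. ENSSSCG00000055629, on the strand opposite to H2AC18 at 99196927 to 99197307 of chromosome 4, had 157, 138, 99 and 133 in controls, against 110, 81, 149 and 106 with melatonin (-0.38 ± 0.25, adjusted p of 0.582 in edgeR). Next to H2BC11, the model that the table of gene names calls H2AC11 had 55, 49, 125 and 74 counts in controls, against 52, 63, 42 and 45 with melatonin, while H2BC11 had at most 2 counts in any control and 13 to 60 with melatonin. Elsewhere in the chromosome 7 cluster, ENSSSCG00000053139 (20906355 to 20906747) had 0 counts in all 4 controls, against 0, 26, 32 and 20 with melatonin. Another model of 393 bases, at 20729997 to 20730389, had 0 in all controls, against 0, 3, 4 and 19. Both were picked for these values, so they are given as a description. In edgeR without a filter their adjusted p were 0.515 and 0.526.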
